A study of Homo sapiens with 26 samples.

Results

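The genes described here are 45 genes of DNA replication and S phase, chosen by a fixed list of symbols and followed through RNA sequencing of 2 lymphoma lines. The list was chosen with earlier results of these data known, so its shares of called genes are not those of a set picked blind. All 45 were found in the annotation and all 45 passed the filter on low counts in every fit, out of 58592 annotated genes with a transcript in the files. Each gene's value is the sum of its transcripts, given as estimated counts and as TPM. The lines, OCI-Ly7 and SUDHL4, come from diffuse large B cell lymphomas of the germinal centre type. Both carried dCas9-BFP-KRAB, a catalytically dead Cas9 joined to a repressor domain and expressed from the SFFV viral promoter after lentiviral transduction, in the controls as well as in the knockdowns. A second lentivirus brought guide RNAs against POU2AF1, guide RNAs against POU2F2, or non-targeting guides in the controls. POU2AF1 encodes OCA-B, a B cell coactivator, and POU2F2 encodes OCT2, the octamer-binding factor that OCA-B joins on DNA. OCI-Ly7 gave 6 POU2AF1 knockdown, 8 POU2F2 knockdown and 4 control libraries, and SUDHL4 gave 1 POU2AF1 knockdown, 2 POU2F2 knockdown and 1 control library. These 22 libraries come from 26 files: files that differed by about the sampling noise, or that equalled the sum of others, were counted as 1 library. The labels do not say whether replicates are separate cultures, so the p-values cover the spread among these libraries alone, and that spread may be technical.

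Chromosomal DNA is copied once per cell cycle. In G1 the origin recognition complex, CDC6 and CDT1 load the ring-shaped MCM helicase onto DNA. At the start of S phase CDC45 and the GINS complex join MCM to form the active helicase, primase and the polymerases copy the strands, and PCNA, the sliding clamp, holds the polymerases to DNA. Many of these genes are transcribed in late G1 and S phase under E2F transcription factors. Germinal centre B cells are among the fastest dividing cells of the body. In bulk RNA, fewer cells in S phase and less RNA of these genes per cell cannot be told apart.

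The files held 24959865 to 53155548 estimated reads, and mitochondrially encoded genes took 6.95% to 25.5% of reads per library. The highest share belonged to OCI-Ly7 POU2AF1 knockdown replicate 1. Both targeted genes were low in their knockdowns. POU2AF1 was at 27.3 to 87.9 CPM (normalised counts scaled to a common library size by edgeR's TMM factors) in the 6 OCI-Ly7 POU2AF1 knockdown libraries and at 445 to 470 CPM in the 4 controls. The SUDHL4 knockdown had 79.8 CPM of it and the SUDHL4 control 442 CPM. POU2F2 was at 55.7 to 148 CPM in the 8 OCI-Ly7 POU2F2 knockdown libraries, all labelled batch 2. It was at 207 to 248 CPM in the batch 2 controls and at 407 CPM in the batch 1 control. In SUDHL4 it was at 43.5 and 55.3 CPM in the POU2F2 knockdowns against 330 CPM in the control. In the POU2AF1 knockdowns POU2F2 was at 183 to 376 CPM in OCI-Ly7 and at 496 CPM in SUDHL4. Among markers of other blood cells, the summed level of 8 myeloid markers was 0.215 to 1.23 TPM over all libraries. In SUDHL4 it was 0.756 TPM in the POU2AF1 knockdown, 0.292 and 0.321 TPM in the POU2F2 knockdowns and 0.346 TPM in the control. S100A8 and MPO were at 0 in every SUDHL4 library, while ITGAM, the 1 myeloid marker that passed the filter, was called higher in the POU2AF1 knockdown, at 0.873 CPM against 0.125 CPM in the control (edgeR, adjusted p = 0.0028). The 8 T and NK cell markers summed to 12.1 TPM in the SUDHL4 POU2AF1 knockdown, 18.1 and 22.2 TPM in the POU2F2 knockdowns and 39 TPM in the control. CD247, a signalling chain, made up most of that sum, at 9.34 TPM in the POU2AF1 knockdown, 15.8 to 19.5 TPM in the POU2F2 knockdowns and 37.9 TPM in the control. Of 4 tested T and NK markers CD247 was called lower in the POU2AF1 knockdown, and CD3E (2.58 CPM against 1.12 CPM in the control) and CD3G (0.759 CPM against 0.125 CPM) were called higher (edgeR, adjusted p = 0.013 for CD3E and 0.012 for CD3G). CD3D was at 0 in every SUDHL4 library. The part of these markers in the results below was not tested.

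Promoter sequences of 6 of the genes are shown because the results below turn on these genes, and 5 of them hold 1 of 4 E2F words, which the list did not use. They are RefSeq windows on GRCh38.p14, each 300 bases long, and capitals mark matches to the E2F words TTTCCCGC, TTTCGCGC, TTTGCCGC or TTTGGCGC on either strand.
GINS1 promoter, chr20:25407423-25407722, plus strand: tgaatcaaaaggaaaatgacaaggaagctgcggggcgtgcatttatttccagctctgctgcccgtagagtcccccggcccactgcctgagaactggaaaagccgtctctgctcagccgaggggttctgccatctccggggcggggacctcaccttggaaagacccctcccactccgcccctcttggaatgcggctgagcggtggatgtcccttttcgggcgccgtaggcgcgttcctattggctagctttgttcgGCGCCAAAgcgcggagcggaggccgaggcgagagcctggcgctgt
DTL promoter, chr1:212035498-212035797, plus strand: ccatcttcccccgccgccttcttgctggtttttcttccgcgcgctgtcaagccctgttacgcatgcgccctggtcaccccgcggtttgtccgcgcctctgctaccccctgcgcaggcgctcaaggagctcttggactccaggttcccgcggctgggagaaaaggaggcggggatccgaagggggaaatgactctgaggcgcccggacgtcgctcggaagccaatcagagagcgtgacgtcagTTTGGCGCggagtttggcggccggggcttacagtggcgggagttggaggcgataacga
CDT1 promoter, chr16:88803539-88803838, plus strand: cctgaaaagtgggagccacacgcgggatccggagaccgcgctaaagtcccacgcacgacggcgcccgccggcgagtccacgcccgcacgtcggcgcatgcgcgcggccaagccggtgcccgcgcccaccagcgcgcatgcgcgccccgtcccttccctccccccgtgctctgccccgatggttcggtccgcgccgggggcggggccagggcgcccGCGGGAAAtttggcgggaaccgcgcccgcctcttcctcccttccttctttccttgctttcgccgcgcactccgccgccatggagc
MCM2 promoter, chr3:127598161-127598460, plus strand: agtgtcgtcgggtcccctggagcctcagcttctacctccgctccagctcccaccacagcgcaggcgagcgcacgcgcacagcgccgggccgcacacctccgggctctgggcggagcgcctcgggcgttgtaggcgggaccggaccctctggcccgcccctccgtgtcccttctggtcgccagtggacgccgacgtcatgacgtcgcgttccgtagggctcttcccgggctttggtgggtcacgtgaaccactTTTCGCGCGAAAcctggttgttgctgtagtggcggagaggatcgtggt
EXO1 promoter, chr1:241847954-241848253, plus strand: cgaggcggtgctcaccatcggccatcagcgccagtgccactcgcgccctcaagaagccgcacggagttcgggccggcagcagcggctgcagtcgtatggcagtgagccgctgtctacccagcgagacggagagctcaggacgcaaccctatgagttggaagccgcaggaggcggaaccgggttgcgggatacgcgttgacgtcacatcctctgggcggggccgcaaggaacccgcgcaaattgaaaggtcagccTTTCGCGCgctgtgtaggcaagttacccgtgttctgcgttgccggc
CHAF1B promoter, chr21:36385142-36385441, plus strand: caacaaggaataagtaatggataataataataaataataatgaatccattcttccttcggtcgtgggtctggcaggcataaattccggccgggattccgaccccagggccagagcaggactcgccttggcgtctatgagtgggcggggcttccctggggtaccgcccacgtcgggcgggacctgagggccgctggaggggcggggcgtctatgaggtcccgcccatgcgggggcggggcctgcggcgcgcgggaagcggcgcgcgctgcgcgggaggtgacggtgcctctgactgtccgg
Windows are placed by RefSeq's transcription starts, which differ from the GENCODE gene bounds given below. The words are not the same in all 5 promoters, and the MCM2 promoter holds a pair of overlapping words on opposite strands. CHAF1B is shown as a promoter with no match in this window. Windows were found for 39 of the 45 genes, and 21 of these genes (53.8%) had an E2F word in at least 1 window, against 3.99% of all 27305 genes in the table. Counted by window, the shares were 43.1% of 51 and 3.31% of 35116. The octamer ATGCAAAT, the word that OCT2 and OCA-B recognise, was in none of the 51 windows and in 1.77% of all windows. At that share 51 windows would hold few or none, so its absence is a description only. The CCAAT word was in 56.9% of the windows of these genes and in 34.6% of all windows. The GC box GGGCGG was in 72.5% and 45% of windows. A match describes letters in a window and not a bound site.

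In SUDHL4 the POU2AF1 knockdown library held less RNA of nearly every gene of the list. Of 45 genes 44 were called lower and none higher (edgeR, adjusted p below 0.05), where 18.8% of all 16973 genes tested were called lower. The median fitted log2 change of the 45 genes was -0.74, against 0.01 over all genes, and the changes ran from -1.23 for GINS1 to 0.04 for RPA2. Expressed as a share of the control library, the median gene stood at 59.2% of its control CPM, and 26 genes stood below 60%. The summed level of the list was 1950 TPM in the POU2AF1 knockdown, 3230 and 3480 TPM in the POU2F2 knockdowns and 3980 TPM in the control. The knockdown and the control are 1 library each, so their standard errors and p-values borrow the spread between the 2 POU2F2 knockdown libraries. Mitochondrially encoded genes took 12.6% of reads in the POU2AF1 knockdown, 13.9% and 10.1% in the POU2F2 knockdowns and 9.64% in the control, and the part of this in the change was not tested. With the spread taken from all 22 libraries, 7 of the 44 remained called (MCM2, CDC45, POLD3, RFC5, CHAF1B, DTL and EXO1), where 1.66% of all genes were called.

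**Figure D1:**
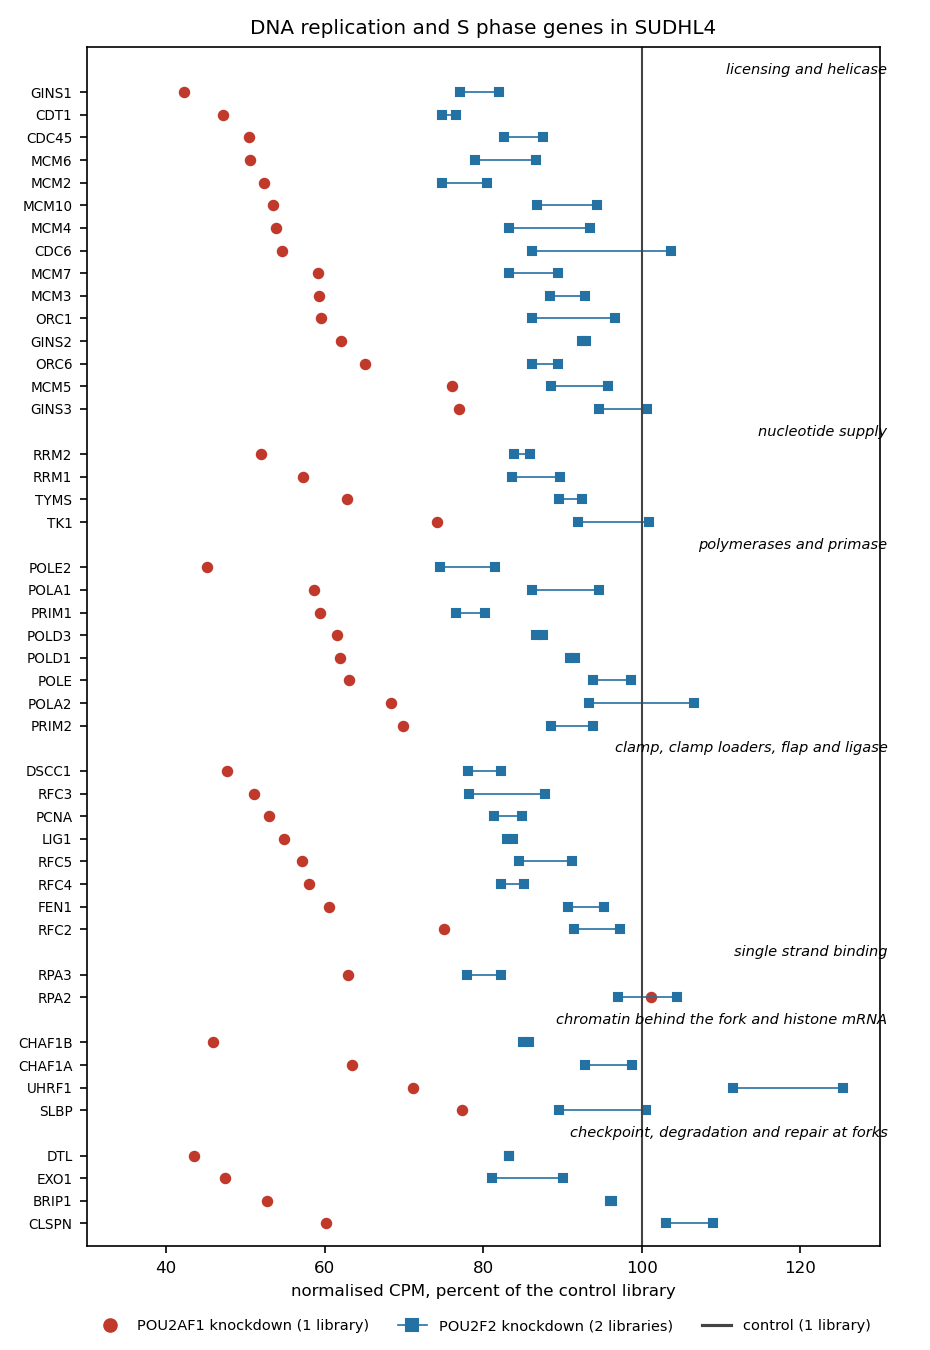
Normalised CPM of each of the 45 genes in the SUDHL4 knockdown libraries as a percent of the single control library (x axis), with genes down the page by role. Circles are the POU2AF1 knockdown library and lie below 80% for every gene but RPA2 (101.2%), and squares are the 2 POU2F2 knockdown libraries, joined by a line, which lie from 74.5% to 125.4%.

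Among the 15 genes of origin licensing and the replicative helicase all 15 fell, with a median log2 change of -0.85. GINS1, a subunit of the GINS complex (ENSG00000101003, chromosome 20, 25407727 to 25452628, GRCh38, plus strand), stood at 34.5 CPM in the POU2AF1 knockdown and 81.8 CPM in the control, a log2 change of -1.23 ± 0.11 (standard error; adjusted p = 3.2e-11, or 0.12 with all libraries fitted together). CDT1, the MCM loader (chromosome 16, 88803213 to 88809258, plus strand), stood at 59.9 CPM in the knockdown and 127 CPM in the control, a log2 change of -1.07 ± 0.10 (adjusted p = 4.3e-10, or 0.50 with all libraries fitted together). CDC45, which completes the active helicase (chromosome 22, 19479459 to 19520612, plus strand), was at 28.1 CPM and 55.8 CPM in the same libraries, a log2 change of -0.97 ± 0.11 (adjusted p = 1.6e-08, or 0.023 with all libraries fitted together). The 6 subunits of the MCM ring did not fall equally: MCM6, MCM2 and MCM4 were at 50.6%, 52.3% and 53.9% of control, MCM7 and MCM3 at 59.2% and 59.3%, and MCM5 at 76.1%. GINS subunits were as uneven, with GINS1 at 42.2%, GINS2 at 62% and GINS3 at 76.9% of control. These shares come from 1 library over 1 library, and differences between genes were not tested.

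All 4 genes of nucleotide supply fell. RRM2, the regulated subunit of ribonucleotide reductase, was at 180 CPM in the POU2AF1 knockdown and 347 CPM in the control (log2 change -0.93 ± 0.12, adjusted p = 7.7e-08, or 0.73 with all libraries fitted together), and its partner RRM1 was at 57.3% of control. The thymidylate synthase TYMS was at 62.8% and the thymidine kinase TK1 at 74.2%. The 8 polymerase and primase genes fell as well, from POLE2, an accessory subunit of polymerase epsilon at 45.2% of control, to PRIM2, the large primase subunit at 69.9%. PRIM2 shares sequence with a near-identical copy in the genome, so its reads are uncertain. Their median log2 change was -0.68.

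The clamp, the clamp loaders, the flap nuclease and the ligase gave 8 falls among 8 genes, with a median of -0.82. DSCC1, a subunit of the alternative clamp loader that acts in sister chromatid cohesion (chromosome 8, 119833976 to 119856010, minus strand), was at 26.2 CPM in the knockdown and 54.9 CPM in the control, a log2 change of -1.05 ± 0.11 (adjusted p = 4.6e-09, or 0.27 with all libraries fitted together). PCNA stood at 176 CPM and 332 CPM in these libraries, and the replicative DNA ligase LIG1 at 74 CPM and 135 CPM. RFC2, a subunit shared by the clamp loaders, was the least changed of the group at 75% of control, while RFC3 was at 51.1%.

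The pair of single strand binding genes divided. RPA3 fell to 63% of its control level, and RPA2 was the exception of the whole list, at 60.9 CPM in the POU2AF1 knockdown, 62.9 and 58.4 CPM in the POU2F2 knockdowns and 60.2 CPM in the control (log2 value 0.04 ± 0.11, adjusted p = 0.83). Of the genes that act on chromatin behind the fork, CHAF1B, a subunit of the histone chaperone CAF-1 (chromosome 21, 36385378 to 36419015, plus strand), was at 16.2 CPM in the knockdown and 35.3 CPM in the control, a log2 change of -1.10 ± 0.13 (adjusted p = 1.8e-08, or 0.031 with all libraries fitted together). Its partner CHAF1A was at 63.5% of control. UHRF1, which brings the maintenance DNA methyltransferase to new DNA, was at 71.2%, and SLBP, which binds the stem loop of histone mRNA, at 77.3%.

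The 4 genes of fork surveillance and repair had the lowest median of any role, -0.98. DTL, the substrate receptor of the ubiquitin ligase that destroys CDT1 at replicating DNA (chromosome 1, 212035553 to 212107400, plus strand), was at 33.7 CPM in the POU2AF1 knockdown, 64.4 CPM in both POU2F2 knockdowns and 77.4 CPM in the control. Its log2 change after POU2AF1 knockdown was -1.18 ± 0.11 (adjusted p = 7.1e-11, or 0.0019 with all libraries fitted together). EXO1, an exonuclease of mismatch repair and end resection (chromosome 1, 241847967 to 241895148, plus strand), was at 14.3 CPM in that knockdown and 30.2 CPM in the control (log2 change -1.06 ± 0.14, adjusted p = 1.1e-07, or 0.012 with all libraries fitted together). The helicase BRIP1 was at 52.7% and CLSPN, which couples stalled forks to the checkpoint kinase, at 60.1% of control. Genes with an E2F word in a promoter window had a median log2 change of -0.84, and those with a window but no word had -0.73.

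Genes of the neighbouring cell cycle phases were also lower in this library. Of 48 other replication and S phase genes, 41 fell and none rose, with a median log2 change of -0.64. The 4 smallest adjusted p among them belonged to RAD51AP1, a recombination factor, at -1.17 ± 0.11, CDC7, the kinase that fires origins, at -1.17 ± 0.11, E2F2 at -1.06 ± 0.11 and E2F1 at -1.06 ± 0.11 (adjusted p = 7.3e-11, 2.9e-10, 9e-10 and 1.4e-09 by edgeR in the fit of the line). All 52 genes of G2 and mitosis fell, with a median of -0.84, among them the mitotic kinase CDK1 at -1.12 ± 0.11 and the checkpoint gene MAD2L1 at -1.06 ± 0.10. Of 22 tested genes of G1 control 3 rose and 11 fell, where 18% of all genes were called higher and 18.8% lower. The inhibitors CDKN1A (1.44 ± 0.42) and CDKN2B (1.55 ± 0.42) and the E2F repressor RB1 (0.53 ± 0.12) rose and are named because they were the only ones, a choice made after their values were seen. The kinase CDK6 (-1.23 ± 0.12) and MYC (-1.12 ± 0.12) fell. Of 8 B cell markers, against the same shares of all genes, 6 rose and 2 fell, with BCL6, the germinal centre repressor, at -1.53 ± 0.13. With all libraries fitted together 6 of the other S phase genes and 9 of the G2 and mitosis genes were called lower and 0 of the G1 genes were called. Of the B cell markers 3 were called higher and 1 lower there, where 1.66% of all genes were called. The part of these other changes in the fall of the replication genes was not tested.

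**Figure D2:**
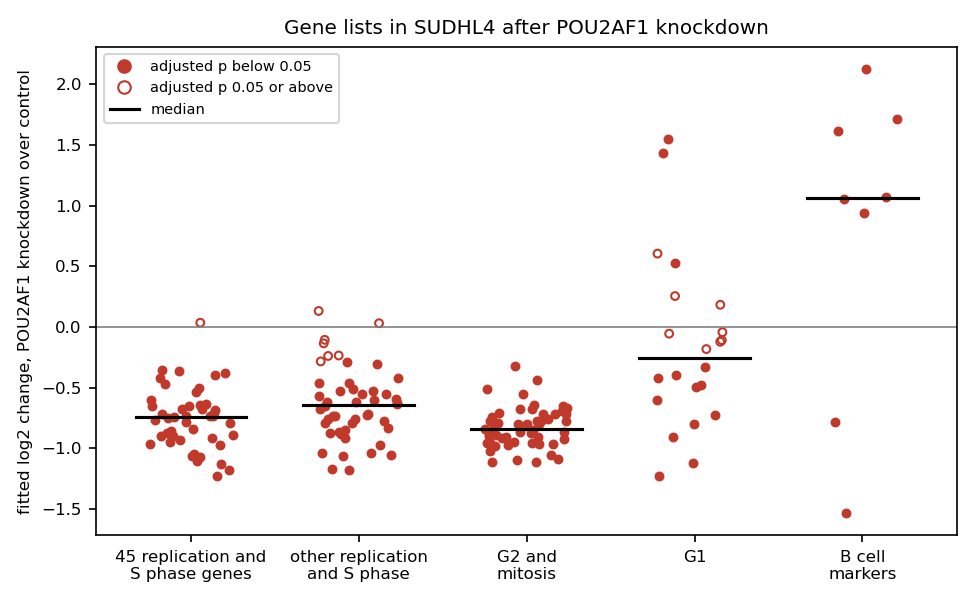
Fitted log2 change in SUDHL4, POU2AF1 knockdown over control (y axis), for the 45 genes and 4 other gene lists (x axis). Each point is a gene, filled where its adjusted p was below 0.05, and bars are medians: -0.74 for the 45 genes, -0.64 for other replication and S phase genes, -0.84 for G2 and mitosis, -0.26 for G1 and 1.06 for B cell markers.

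POU2F2 knockdown in SUDHL4 gave smaller values of the same sign. Of the 45 genes 3 were called lower and none higher, 6.67% of the list, where 7.35% of all genes were called, 2.56% lower and 4.79% higher. The median log2 value was -0.15, and 41 of 45 values were negative. CDT1 was at 95 and 97.3 CPM in the 2 knockdown libraries and 127 CPM in the control (log2 change -0.37 ± 0.09, adjusted p = 0.0050). MCM2, another subunit of the MCM ring (chromosome 3, 127598223 to 127622436, plus strand), was at 268 and 249 CPM in the knockdowns and 333 CPM in the control (log2 change -0.33 ± 0.10, adjusted p = 0.030). GINS1 was at 67.1 and 63.1 CPM in the knockdowns and 81.8 CPM in the control (log2 change -0.30 ± 0.09, adjusted p = 0.033). Both knockdown libraries lay below the single control library for these genes, as they did for 37 of the 45. The share of all genes with this order is not given here, so the count is a description only. In the fit of all libraries none of the 45 was called, where 0.0951% of all genes were called. UHRF1 and CLSPN stood above control in both knockdown libraries, UHRF1 at 112 and 99.6 CPM against 89.3 CPM (log2 value 0.28 ± 0.09, adjusted p = 0.061) and CLSPN at 65.3 and 61.7 CPM against 59.9 CPM, and neither was called.

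Set against each other, the SUDHL4 POU2F2 knockdowns held more RNA than the POU2AF1 knockdown for 44 of 45 genes (edgeR, adjusted p below 0.05), where 26.2% of all genes were called and 13.8% were called higher. The median log2 difference was 0.62, and RPA2 was the gene not called, at 0.01. DTL, with the smallest p, stood at 64.4 CPM in both POU2F2 knockdowns and 33.7 CPM in the POU2AF1 knockdown (log2 difference 0.95 ± 0.10, adjusted p = 2.3e-09, or 0.020 with all libraries fitted together). GINS1 differed by 0.93 ± 0.10 (adjusted p = 3.8e-09, or 0.43 with all libraries fitted together). CLSPN was at 65.3 and 61.7 CPM in the POU2F2 knockdowns and 36 CPM in the POU2AF1 knockdown, a difference of 0.83 ± 0.10 (adjusted p = 3.5e-08, or 0.74 with all libraries fitted together). UHRF1, BRIP1 and CHAF1B differed by 0.75, 0.88 and 0.91. In the fit of all libraries DTL was the only gene of the 45 that was called, where 0.196% of all genes were called, and it lost the call there without either POU2F2 knockdown library (adjusted p = 0.14 without replicate 1 and 0.13 without replicate 2).

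In OCI-Ly7 no gene of the list was called after either knockdown. After POU2AF1 knockdown 0 of 45 genes passed and 1 had an unadjusted p below 0.05 (edgeR), where 0.796% of all 16841 genes tested were called, and DESeq2 also called 0 of the 45. The median log2 value was -0.09, with 36 of 45 values negative, and the standard errors of the 45 genes ran from 0.081 to 0.37. TK1, which salvages thymidine, had the smallest p of the list. It was at 108, 87, 100, 98.1, 78.7 and 101 CPM in POU2AF1 knockdown replicates 1 to 6 and at 113, 103, 130 and 139 CPM in control replicates 1, 7, 8 and 9. The groups overlapped, and the log2 value was -0.35 ± 0.15 (adjusted p = 0.68). LIG1 was at 148 to 188 CPM in the 6 knockdown libraries (median 152) and at 179 to 240 CPM in the controls, with 1 knockdown library, replicate 6, inside the control range (log2 value -0.28 ± 0.13, adjusted p = 0.81).

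After POU2F2 knockdown in OCI-Ly7 the edgeR test called 0 of 45 genes, none had an unadjusted p below 0.05, and 0% of all genes were called. Before adjustment 327 of all 16841 genes tested had a p below 0.05, a smaller share than the 0.05 that uniform p-values would give. The test was therefore cautious here, and the lack of calls does not show a lack of change. By DESeq2 0 of the 45 and 6 of all genes passed. The median log2 value was -0.08, with 38 of 45 values negative. MCM2 was at 357 to 418 CPM in the 8 knockdown libraries (median 380) and at 410 to 452 CPM in the 4 controls (log2 value -0.10 ± 0.08, adjusted p = 1). TK1 was at 82.1 to 132 CPM in the knockdowns (median 106) and at 103 to 139 CPM in the controls. Between the knockdowns, POU2F2 over POU2AF1, 0 of 45 genes were called and none had an unadjusted p below 0.05, where 0.154% of all genes were called (0.0238% lower), and DESeq2 also called 0 of the 45. Before adjustment 609 of all genes had a p below 0.05 in this comparison, again a smaller share than 0.05, so its lack of calls has the same limit. The median difference was 0.01. DTL was at 78.6 to 98 CPM after POU2F2 knockdown (median 95.1) and 94 to 110 CPM after POU2AF1 knockdown (median 98.5), with a log2 difference of -0.17 ± 0.09 (adjusted p = 1). DSCC1 was at 36.1 to 77.1 CPM after POU2F2 knockdown (median 48.1) and 36.5 to 56.4 CPM after POU2AF1 knockdown (median 51), with a difference of 0.34 ± 0.22 (adjusted p = 1). The groups overlapped for both genes.

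**Figure D3:**
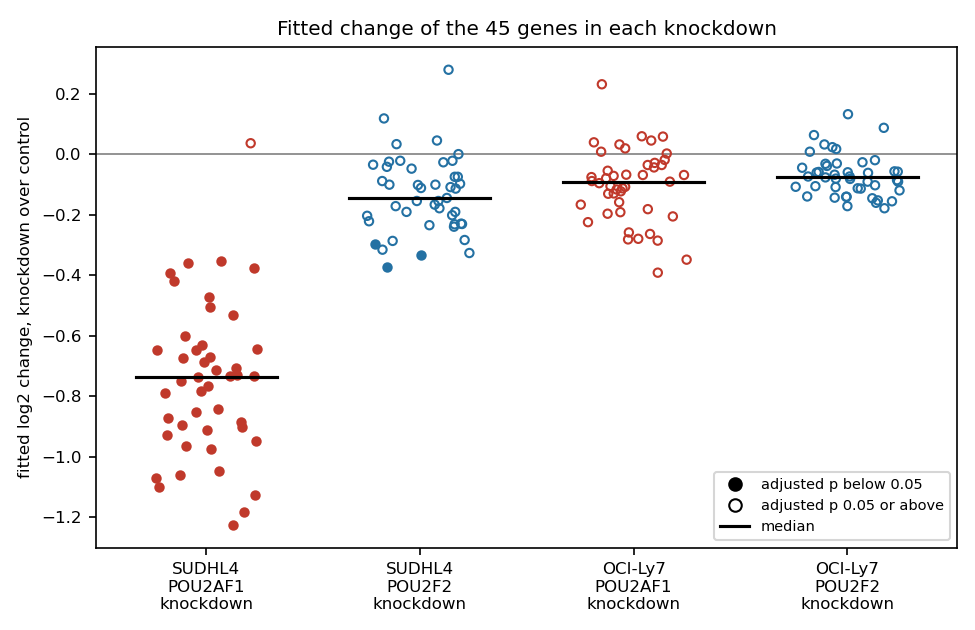
Fitted log2 change, knockdown over control (y axis), of the 45 genes in the 4 knockdown comparisons (x axis). Filled points have an adjusted p below 0.05, open points do not, and bars are medians: -0.74 and -0.15 in SUDHL4, -0.09 and -0.08 in OCI-Ly7.

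These OCI-Ly7 medians rest on few controls. For POU2AF1 knockdown the median log2 value was -0.04, -0.02, -0.14 and -0.16 without control replicate 1, 7, 8 and 9 in turn, and -0.21 and -0.06 without knockdown replicate 5 and 6. For POU2F2 knockdown it was 0.03, -0.13 and -0.14 without control replicate 7, 8 and 9. Within batch 1 alone, where 4 POU2AF1 knockdown libraries face 1 control, the median for POU2AF1 was -0.18, and within batch 2 alone it was -0.04, with none of the 45 called in either. For POU2F2 knockdown, all of whose libraries are labelled batch 2, it was -0.06 within batch 2. Set against the control of its own batch or series mark, each of the 6 POU2AF1 knockdown libraries had a negative median, from -0.32 in replicate 1 to -0.06 in replicate 6, and 33 to 42 of the 45 genes lay below the control. POU2F2 knockdown replicates 2, 4, 5, 6, 7 and 8, which share a mark with a control, had medians from -0.24 to -0.02, with 25 to 43 genes below it. Replicates 4, 5 and 6 were set against the same control replicate 7, and replicates 2 and 7 against control replicate 8. POU2AF1 knockdown replicates 1 to 4 were all set against control replicate 1. These medians are therefore not independent, and the shares of all genes below each control are not given here.

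A fit with the series mark as a block in place of the batch called 6 of the 45 genes lower after POU2AF1 knockdown, where 4.89% of all genes were called. The median log2 value of the list in this fit was -0.17. They were DSCC1 (-0.47 ± 0.08, adjusted p = 0.0031), RFC3 (-0.35 ± 0.06, adjusted p = 0.0036), LIG1 (-0.24 ± 0.05, adjusted p = 0.015), GINS1 (-0.36 ± 0.08, adjusted p = 0.020), TK1 (-0.29 ± 0.08, adjusted p = 0.043) and GINS3 (-0.29 ± 0.08, adjusted p = 0.045). Without replicate 1, the library of high mitochondrial share, 9 were called lower, adding CDC6, POLA2 and FEN1. There 9.33% of all genes were called in either direction. DSCC1 was at 56.4, 49.9, 52.1 and 53.4 CPM in the batch 1 knockdowns against 79.8 CPM in the batch 1 control, at 47 CPM against 72.2 CPM in series s0, and at 36.5 CPM against 41.6 CPM in series s2. It was lower than the matching control in all 6 libraries. No gene of the list was called for POU2F2 knockdown in the fit of all OCI-Ly7 libraries with the series mark as a block.

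Within OCI-Ly7 the replication genes also differed between series marks. The descriptions of the batch 2 libraries carry a mark from s0 to s3, and what the mark stands for is not given in the sources used here. Of the 45 genes, 26 (57.8%) were higher in each of the 5 libraries of s0 than in any of the 7 libraries of s1 to s3, and 2, POLE and LIG1, were lower, without regard to guide. Over all genes tested 37.5% did not overlap between these libraries, 20.5% higher and 17% lower. RRM2 was at 350 to 451 CPM in s0 (median 374) and at 128 to 224 CPM in s1 to s3 (median 168). CDC6 was at 194 to 232 CPM in s0 and 110 to 130 CPM in s1 to s3, FEN1 at 266 to 319 CPM and 155 to 196 CPM, and MCM4 at 725 to 909 CPM and 401 to 532 CPM. Both sets held POU2AF1 knockdown, POU2F2 knockdown and control libraries. In the control libraries alone RRM2 was at 451 CPM in the s0 control and at 202 and 165 CPM in the s2 and s3 controls. The s0 libraries held 8.44% to 9.41% mitochondrial reads and the s1 to s3 libraries 9.09% to 13.2%, and the part of this share in the difference was not tested. This comparison was chosen after the values were seen.

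Batch 1 stood apart in fewer of the genes. MCM2, CDT1 and POLD1, the catalytic subunit of polymerase delta, were higher in all 5 batch 1 libraries than in any of the 12 marked libraries of batch 2, and MCM3, GINS2, POLD3 and PRIM1 were lower, which makes 15.6% of the list where 12.5% of all genes did not overlap (7.7% higher and 4.79% lower). CDT1 was at 105 to 140 CPM in batch 1 and at 34.5 to 68.3 CPM in the marked batch 2 libraries. POLD1 was at 168 to 218 CPM and 68.9 to 125 CPM in the same libraries. In batch 1 the labels give 48 h for POU2AF1 knockdown replicate 3. They also give it for a batch 1 control file that equalled the sum of others. POU2F2 knockdown replicate 3 was labelled batch 2 and 48 h and carried no mark. It was at 133 CPM for CDT1, 215 CPM for POLD1 and 450 CPM for MCM3, inside the batch 1 range, as it was for GINS2 and PRIM1. For the other 2 of these 7 genes it was outside that range, with MCM2 at 418 CPM against 430 to 452 CPM in batch 1 and POLD3 at 63.8 CPM against 55.4 to 62.3 CPM. Without that library the median log2 value of the 45 genes after POU2F2 knockdown was -0.12. Over all 18 OCI-Ly7 libraries the ratio of the highest to the lowest CPM was 4.06 for CDT1, 3.52 for RRM2 and 3.47 for UHRF1, against 1.27 for MCM2 and 1.24 for RFC5, and it exceeded 2 for 11 genes.

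**Figure D4:**
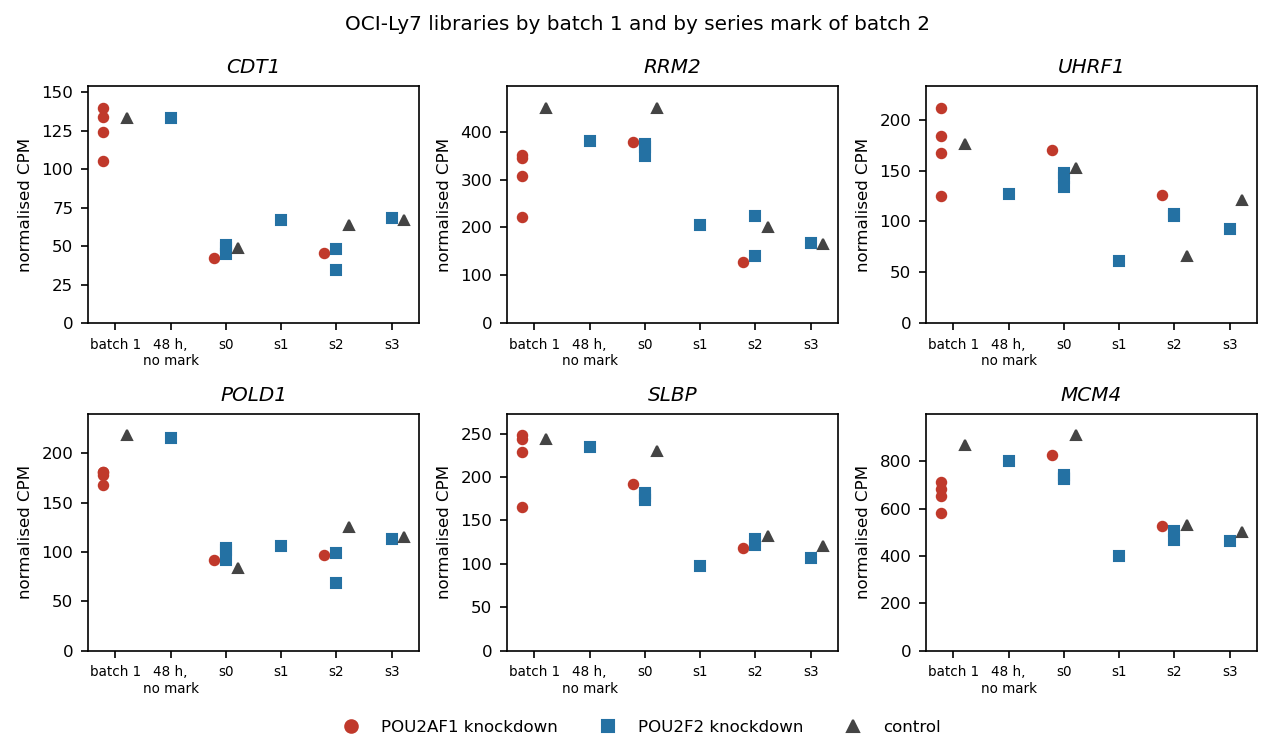
Normalised CPM (y axes, from 0) of the 6 genes with the widest range over the 18 OCI-Ly7 libraries, by batch 1, the unmarked 48 h library of batch 2 and the series marks s0 to s3 of batch 2 (x axes). Each point is a library, by guide. RRM2, SLBP and MCM4 are higher in s0 than in s1 to s3 under every guide, while CDT1 and POLD1 are highest in batch 1 and the unmarked library.

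The response to POU2AF1 knockdown was then compared between the lines in 1 fit of all libraries, as the log2 change in OCI-Ly7 minus that in SUDHL4. DTL, MCM2 and EXO1 differed (3 of 45, 6.67%, edgeR, adjusted p below 0.05), where 0.798% of all 18918 genes were called 0.143% with a positive and 0.655% with a negative difference. Over the list 44 of 45 differences were positive, with a median of 0.67. DTL differed by 1.24 ± 0.21 (adjusted p = 0.0045). It stood at 100 ± 6.0 CPM in the POU2AF1 knockdowns and 100 ± 10 CPM in the controls of OCI-Ly7 (SD, n = 6 and n = 4), but at 33.7 CPM in the knockdown and 77.4 CPM in the control of SUDHL4. MCM2 averaged 425 ± 20 CPM in the OCI-Ly7 knockdowns and 428 ± 18 CPM in the controls, and at 174 CPM and 333 CPM in the SUDHL4 knockdown and control (difference 0.87 ± 0.18, adjusted p = 0.028). EXO1 was at 80.8 to 108 CPM in the knockdowns and 80.9 to 108 CPM in the controls of OCI-Ly7 and at 14.3 CPM and 30.2 CPM in the SUDHL4 pair (difference 1.12 ± 0.24, adjusted p = 0.029). Within batch 1 alone, DTL kept its call (1.23, adjusted p = 0.027, where 0.745% of all genes were called) and MCM2 (adjusted p = 0.079) and EXO1 (0.066) did not. Without OCI-Ly7 control replicate 1 or 8 only 1 gene was called. For GINS1 the difference was 0.96 on the log2 scale and was not called. The response to POU2F2 knockdown differed between lines for 0 of 45 genes and none had an unadjusted p below 0.05. Of all genes 0.0106% were called, and DESeq2 also called 0 of the 45. Before adjustment 474 of all 18918 genes had a p below 0.05, a smaller share than uniform p-values would give, so this test was cautious too. The median difference was 0.08, and MCM2, with the smallest p, was at 0.24 ± 0.16 (adjusted p = 1). POLE2 followed at 0.42 ± 0.31 (adjusted p = 1), with 20.8 ± 2.8 CPM in the POU2F2 knockdowns and 20.1 ± 4.5 CPM in the controls of OCI-Ly7 (SD, n = 8 and n = 4), and 21.1 and 19.3 CPM against 25.9 CPM in SUDHL4.

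**Figure D5:**
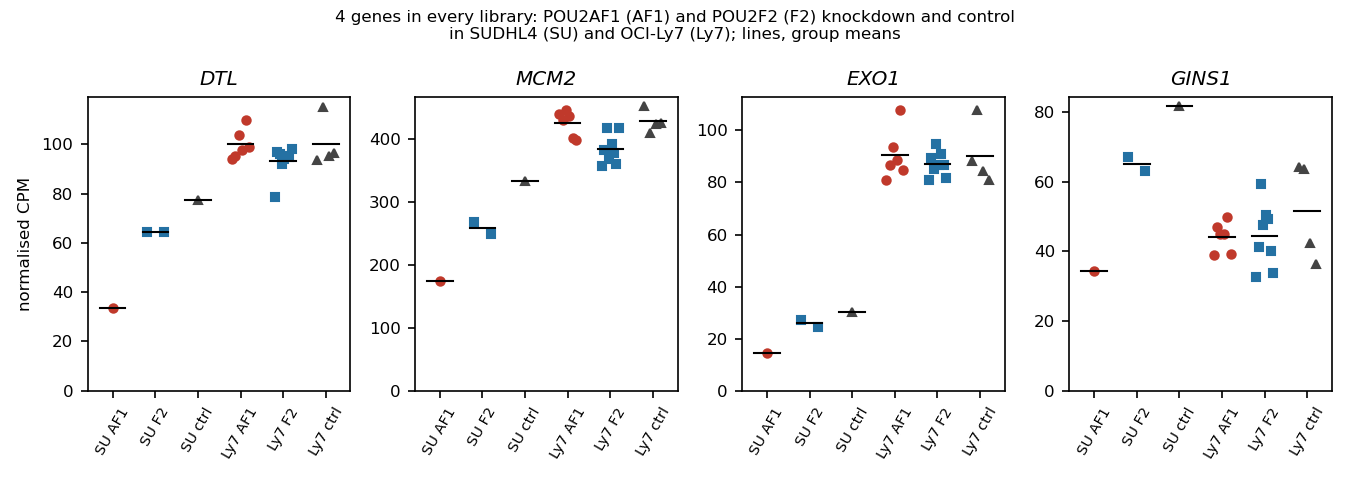
Normalised CPM (y axes, from 0) of DTL, MCM2, EXO1 and GINS1 in every library by line and guide (x axes). Points are libraries and bars group means, and the single SUDHL4 POU2AF1 knockdown library is the lowest SUDHL4 library for each gene, at 33.7, 174, 14.3 and 34.5 CPM.

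The control libraries of the lines also differed in some of these genes, OCI-Ly7 over SUDHL4. Of the 45 genes 8 were higher in OCI-Ly7 and 1 was lower (20% of the list). Of all genes 23.5% were called, 11% higher and 12.5% lower. The share in both directions together is near that of all genes, but most calls in the list were higher in OCI-Ly7. The median log2 difference was 0.30, with 34 of 45 values positive, against a median of 0.07 over all genes. The labels give the lines different growth media, which cannot be told apart from the lines. EXO1 had 88.1, 108, 84.3 and 80.9 CPM in controls of OCI-Ly7 and 30.2 CPM in the SUDHL4 control, a log2 difference of 1.504 ± 0.20 (adjusted p = 1.1e-05). GINS3, a subunit of the helicase (chromosome 16, 58295080 to 58406144, plus strand), was at 76.8, 90, 72.7 and 62.8 CPM and 29.5 CPM in the same libraries (1.27 ± 0.26, adjusted p = 0.0011). MCM10, which helps to fire the helicase, was at 97.7 to 159 CPM and 55.5 CPM (1.07 ± 0.34, adjusted p = 0.027). RPA3 ran the other way, at 35 to 38.7 CPM in OCI-Ly7 and 61.9 CPM in SUDHL4 (-0.82 ± 0.25, adjusted p = 0.023). MCM5, MCM2, GINS2, RFC5 and POLD3 were also higher in OCI-Ly7, by 0.44 to 1.05 on the log2 scale. Without OCI-Ly7 control replicate 1, the batch 1 control, 2 genes were called. By level per length, PCNA (382 TPM), MCM7 (324 TPM) and RRM2 (261 TPM) led the list in the SUDHL4 control, and BRIP1 (10.5 TPM) and CHAF1B (11 TPM) closed it. In the OCI-Ly7 controls PCNA was at 455 to 652 TPM and BRIP1 at 11.9 to 14.1 TPM.

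Transcripts were estimated by Salmon without an error in the files, so shares of a gene's TPM are values only. The most abundant transcript was annotated as protein coding for 44 of the 45 genes and held over 50% of the gene's TPM for 37. GINS3, picked for its difference between the lines, drew 58.2% to 81.4% of its TPM from GINS3-201 in the 18 OCI-Ly7 libraries and 38.5% to 47% in the 4 SUDHL4 libraries. GINS3-202 held 10.6% to 33.6% and 42.8% to 55.5% in the same lines. CDT1-202, a retained intron transcript picked after its values were seen, held 0.704% of CDT1 in the SUDHL4 POU2AF1 knockdown, 6.32% to 8.64% in the POU2F2 knockdowns and 13.7% in the control, while in OCI-Ly7 it ranged from 0% to 35.1%.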

How the data were processed

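RNA was sequenced as stranded poly(A) libraries, paired-end, per the labels' protocols. Reads were trimmed with fastp and quantified with Salmon 1.5.1 on GRCh38.p13, per the submitters' processing notes; the transcript annotation release is not given in the sources used here. The deposited files hold estimated counts per transcript and TPM, per the file headers. Transcripts were matched without version to GENCODE release 29 (205964 of 227912, holding 98.36% to 98.89% of reads) and summed per gene, and counts were rounded to whole numbers. Repeated files were merged, leaving 22 libraries. edgeR 4.0.16 in R 4.3.3 (quasi-likelihood test in its robust form, TMM factors, filterByExpr at 10 counts, Benjamini-Hochberg adjustment, threshold 0.05) was fitted per line, with a batch term in OCI-Ly7, and over all libraries for differences between lines. The fits held 16841 genes (OCI-Ly7), 16973 (SUDHL4) and 18918 (all). The SUDHL4 fit had 1 residual degree of freedom before moderation. DESeq2 1.42.0 was an alternative. The scripts were tested on simulated data. Any of the 45 genes could be named, with library values for up to 6 called genes per comparison by smallest adjusted p, or the 2 with the smallest p where none was called. From each other list up to 5 called genes were named by smallest adjusted p, with exceptions stated. The 45 genes and the other lists were chosen with earlier results of these data known. Alternatives are given in the closing section.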

Additional observations from a re-analysis of the deposited data

Results flagged for a closer look

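The response to POU2AF1 knockdown differed between the lines for 3 of the 45 genes, as the log2 change in OCI-Ly7 minus that in SUDHL4: DTL by 1.243, EXO1 by 1.121 and MCM2 by 0.871 (edgeR, adjusted p = 0.0045, 0.029 and 0.028).

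In 14 of 135 sets of 1 gene in 1 OCI-Ly7 group, the highest or lowest library stood apart from the rest by Dixon's criterion, where chance would give about 1 in 20, or 6.75, if the libraries of a group were exchangeable. They are not: the groups mix batches and series marks, POU2AF1 knockdown replicate 5 and control replicate 7 are the only s0 libraries of their groups, and POU2F2 knockdown replicate 3 is the unmarked 48 h library. Among the POU2AF1 knockdowns, replicate 5 was highest for MCM6 (442 CPM), RRM1 (290.0 CPM) and POLA1 (158 CPM), replicate 6 was highest for LIG1 (188 CPM) and lowest for RFC3 (110.0 CPM), and replicate 1 was lowest for ORC1 (61.1 CPM). Among the POU2F2 knockdowns, replicate 3 was highest for CDT1 (133 CPM), POLD1 (215 CPM), ORC6 (85.4 CPM) and DSCC1 (77.1 CPM), and replicate 1 was lowest for DTL (78.6 CPM). Among the controls, replicate 7 was highest for ORC1 (107 CPM), CHAF1B (58.3 CPM) and DTL (115 CPM).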

How the results depend on the processing

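Of the 44 genes called after POU2AF1 knockdown in SUDHL4, 7 were called with all libraries fitted together. The 44 called between the SUDHL4 knockdowns became 1, and 0 without either POU2F2 library. The 3 called after POU2F2 knockdown in SUDHL4 became 0 with all libraries fitted together (0 also without either POU2F2 library), 1 by DESeq2, 5 with RLE size factors and 20 with the files kept apart. For the POU2AF1 response, 3 became 22 with the files kept apart, 8 by DESeq2, 1 in batch 1 alone, 0 without the filter on low counts, and 1 to 3 when 1 library was left out. For the control lines, 9 became 21 with the files kept apart, 17 in batch 1 alone, 4 without the filter, and 2 to 9 when 1 library was left out. For POU2AF1 knockdown in OCI-Ly7, 0 became 6 with the series block and 9 with that block and no replicate 1, a setting chosen after seeing the data. With the replicate number as a block 6 genes were called there, and the share of all genes called in that fit is not given here. Its medians were -0.361 for POU2AF1 and -0.238 for POU2F2 knockdown, and TK1 after POU2F2 knockdown turned to 0.005 (edgeR, adjusted p = 0.99). Samples sharing a number had correlations from -0.34 to 0.45. Some of these pairs cross batches, and differences between batches and series marks were left in the values. The correlations therefore cannot show whether the numbers pair the samples. Keeping the files apart counts repeated files of 1 library as separate replicates, so those counts do not rest on more libraries. For most of these settings the share of all genes called is not given here. The causes of these shifts were not tested. No paired analysis was possible in SUDHL4 because its groups share fewer than 2 replicate numbers. SUDHL4 has 1 POU2AF1 knockdown and 1 control library, which limits every count in that line.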
